A study of Mus musculus with 6 samples.

Results

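The 9 genes described here encode 6 claudins (Cldn1, Cldn3, Cldn4, Cldn7, Cldn8 and Cldn23) and 3 of their partners at the tight junction, occludin (Ocln), ZO-1 (Tjp1) and cingulin (Cgn). They were chosen by name, and all 9 of them were found among the 23726 gene models of the deposited table. RNA had been sequenced from 6 mouse libraries: total skin biopsies of healthy skin (1 library), biopsies of 2 distinct DMBA/TPA-induced papillomas, a biopsy of a DMBA/TPA-induced tumour (1 library), and 2 cultures of skin cells isolated from DMBA/TPA tumour, non-tumorigenic mSCC-20 and tumorigenic mSCC-38 (1 library each). In this model of skin cancer the mutagen DMBA starts lesions and the phorbol ester TPA promotes their growth. Papillomas form first and a part of them become squamous cell carcinomas. The labels give no strain, age or sex, no treatment of the healthy skin, and do not say whether the papillomas came from separate mice or the cultures from 1 tumour. Each culture stands for 1 isolate, and only papilloma has more than 1 library, so p-values measure the spread between those 2 papillomas, which may be technical in part.

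Tight junctions seal the space between neighbouring epithelial cells. Claudins span the membrane and bind claudins of the next cell, so the set of claudins a cell makes decides which ions and solutes pass. Occludin is a further membrane protein of the seal, ZO-1 is the scaffold that ties claudins and occludin to actin, and cingulin is a cytoplasmic plaque protein bound by ZO-1. In epidermis the working junction sits in the granular layer, and claudin-1 is needed for the water barrier of skin.

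Depth ran from 25140489 counts in papilloma 1 to 42992597 in the tumour. Levels are given in CPM, each count divided by its library total in units of 1e6 and scaled by TMM factors, and the upper limit that 0 counts leave, 3 counts, corresponds to 0.0604 to 0.141 CPM. Hair genes abundant in skin were still counted in papilloma 1, the tumour and both cultures at a median of 0.0454% to 0.0727% of their skin level (11 genes), and their upper quartile reached 0.150%. Values that do not exceed 0.150% of the highest library are called background here. This cut comes from papilloma 1 and is applied to all libraries, while the upper quartile in mSCC-38 was lower, at 0.0586%. Basal keratinocyte markers were present in every library, while the differentiation keratins Krt1 and Krt10 were at background in both cultures. Krt5 lay between 3363 CPM in skin and 12140 CPM in the tumour, and in mSCC-38 it was at 3733 CPM and Trp63, the transcription factor of stratified epithelium, at 363 CPM. Biopsies are mixtures, so fewer cells of a type and less RNA per cell cannot be told apart.

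In mm9 coordinates Cldn4 (chromosome 5, 135420994 to 135422804, minus strand) and Cldn3 (chromosome 5, 135462085 to 135463346, plus strand) are neighbours 39280 bases apart. Cldn8 (chromosome 16, 88561072 to 88563428, minus strand) lies 53848 bases from Cldn17. Cldn1 is on chromosome 16 (26356733 to 26371925, minus strand), Cldn7 on chromosome 11 (69778282 to 69781388, plus strand) and Cldn23 on chromosome 8 (36887764 to 36889613, minus strand). Ocln is on chromosome 13 (101267323 to 101322453), Tjp1 on chromosome 7 (72441052 to 72516130) and Cgn on chromosome 3 (94563993 to 94590437), all on the minus strand. Of the 9 models, Cldn3 alone overlaps another model of the table, by 43 bases with the minus-strand Wbscr25, which had at most 0.161 CPM in any library.

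Promoter sequence is shown for Cldn4 and Cldn3, the neighbours whose RNA was highest in mSCC-20 and lowest in mSCC-38, and for Tjp1, which had at least 163 CPM in every library. Each line gives the 250 bases before the RefSeq start site, read on the gene's strand, and capitals mark the E-box CAGGTG or its reverse complement CACCTG, which Snail and Zeb repressors are known to bind.
Cldn4, GRCm38.p6 chr5:134946935-134947184, minus strand: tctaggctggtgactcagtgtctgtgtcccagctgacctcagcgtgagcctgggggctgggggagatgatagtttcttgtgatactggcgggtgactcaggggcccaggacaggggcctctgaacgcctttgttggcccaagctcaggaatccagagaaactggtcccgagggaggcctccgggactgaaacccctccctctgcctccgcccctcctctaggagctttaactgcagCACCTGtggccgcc
Cldn3, GRCm38.p6 chr5:134985964-134986213, plus strand: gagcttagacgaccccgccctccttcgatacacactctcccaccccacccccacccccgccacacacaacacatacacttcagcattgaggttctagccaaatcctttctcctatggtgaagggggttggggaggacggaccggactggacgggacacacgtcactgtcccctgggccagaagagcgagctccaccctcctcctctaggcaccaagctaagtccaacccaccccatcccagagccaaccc
Tjp1, GRCm38.p6 chr7:65371245-65371494, minus strand: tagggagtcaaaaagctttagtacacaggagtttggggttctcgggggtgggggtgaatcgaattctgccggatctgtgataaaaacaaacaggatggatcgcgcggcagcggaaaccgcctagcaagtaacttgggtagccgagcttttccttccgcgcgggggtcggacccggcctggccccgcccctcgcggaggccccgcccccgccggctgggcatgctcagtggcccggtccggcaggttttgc
RefSeq gave 9 such windows for 7 of the 9 genes. The E-box, searched on both strands, was found in 3 windows of 3 genes, against 17.2% of all 32851 promoter windows of that length. In Cldn4 it begins 14 bases before the start. In a window of the second Cldn7 start it begins 97 and 57 bases before, and at the second Ocln start 213 and 68 bases before. AACCGGTT, a Grainyhead-like motif searched on both strands, was found in none of the 9 windows and in 0.116% of all. These matches describe letters in the windows and show no binding.

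Patterns of level differed among the 9 genes, as the plot of levels by library shows: Cldn3 and Cldn23 were low in papilloma, Cldn7 was high in the tumour and in mSCC-20, Cldn8 and Tjp1 were higher in every lesion biopsy than in skin, and all of the claudins were near 0 in mSCC-38.

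**Figure D1:**
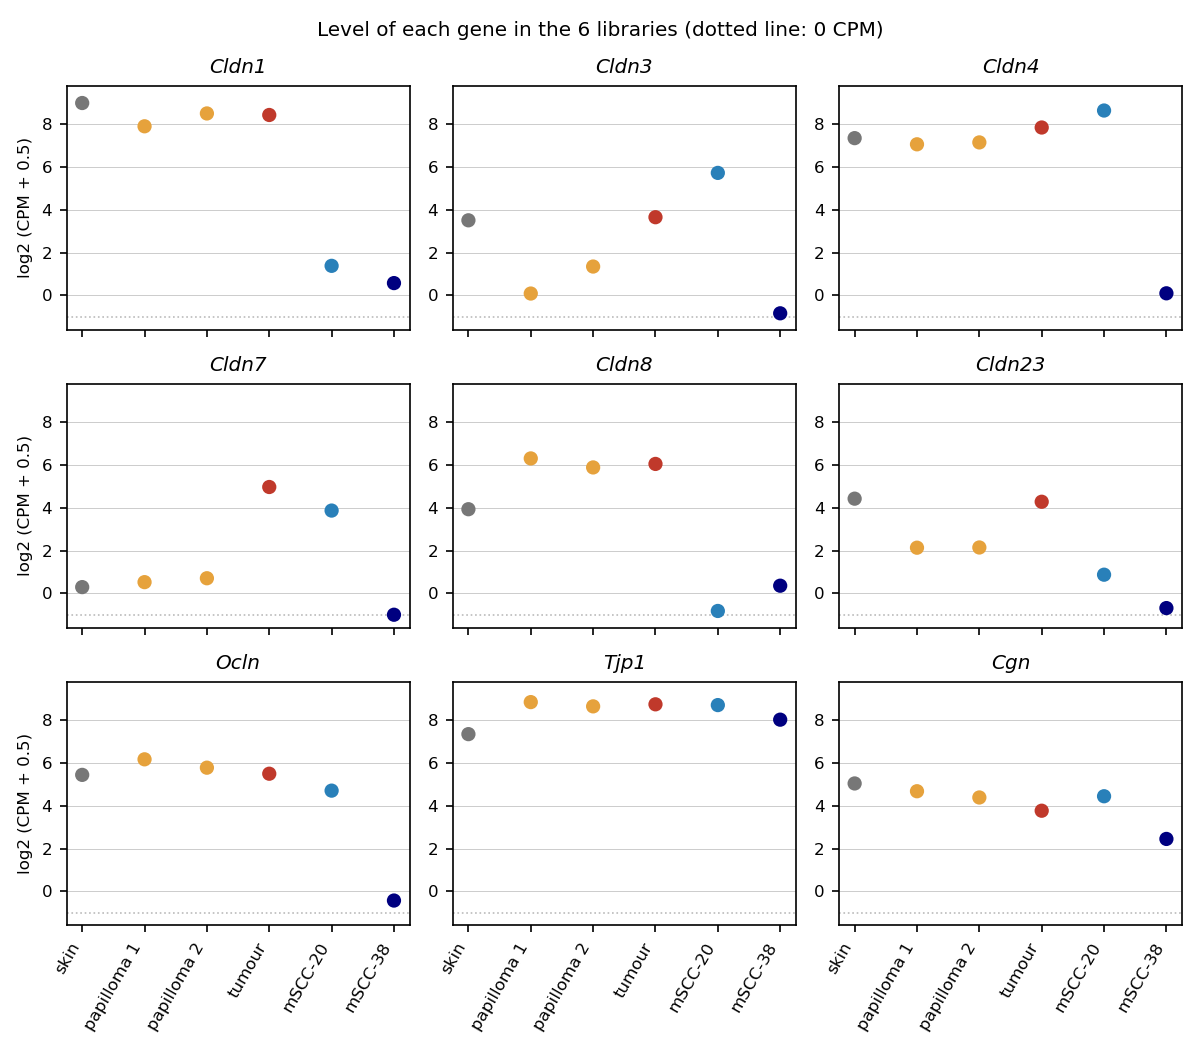
Level of each of the 9 genes as log2 (CPM + 0.5) in the 6 libraries, 1 point per library, with a dotted line at 0 CPM. The mSCC-38 points of the 6 claudins and of Ocln lie under 1 CPM, while Tjp1 stays between 163 and 462 CPM throughout.

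Papilloma was set against healthy skin to see which junction genes differ between a benign lesion and normal tissue. Of the 9 genes, Cldn8 and Tjp1 rose, Cldn3 and Cldn23 fell, and Cldn1, Cldn4, Cldn7, Ocln and Cgn did not pass the test. edgeR's quasi-likelihood test, with Benjamini-Hochberg adjustment over 16353 genes, called 26.0% of all genes tested (12.0% higher and 14.1% lower), so a call is common in this comparison. The median log2 fold change was -0.24 over the 9 genes and -0.06 over all genes tested.

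Cldn8, a claudin best known from the kidney, had 14.8 CPM in skin against 79.1 in papilloma 1 and 58.9 in papilloma 2. Both papillomas lay above skin, by 2.22 ± 0.25 on the log2 scale (fitted change ± SE; edgeR adjusted p = 0.00955). Tjp1, the scaffold gene, was at 163 CPM in skin and at 462 and 402 CPM in the papillomas, a fitted log2 change of 1.41 ± 0.24 (edgeR adjusted p = 0.0208).

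Cldn23 was at 21.1 CPM in skin and at 3.897 and 3.929 CPM in the papillomas. The papillomas were nearly equal and far under skin, at a fitted log2 change of -2.42 ± 0.21 (edgeR adjusted p = 0.00673). Cldn3, known as a receptor of a clostridial enterotoxin in the gut, had 10.9 CPM in skin, against 0.563 in papilloma 1 and 2.05 in papilloma 2. Its papilloma values rest on 12 and 58 counts and differed by a ratio of 3.64 (95% interval 1.94 to 7.46), and the fitted log2 change was -3.02 ± 0.65 (edgeR adjusted p = 0.0335). The Cldn3 call was lost with DESeq2's size factors in the edgeR fit (adjusted p = 0.0566; 0.000700 by DESeq2's Wald test), at a log2 fold change of -2.99. The log2 ratio of CPM was -2.66 when the papillomas were averaged, -2.16 with papilloma 1 left out and -3.43 with papilloma 2 left out.

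Cldn1, the barrier claudin, had 513 CPM in skin, against 241 in papilloma 1 and 365 in papilloma 2. Both papillomas were lower, but the log2 fold change of -0.75 had a 95% interval of -1.56 to 0.05 (edgeR adjusted p = 0.132). Cldn4, which marks upper epidermis and many simple epithelia, had 164 CPM in skin and 134 and 143 CPM in the papillomas, and its log2 fold change of -0.24 had an interval of -0.72 to 0.24. Cldn7 was near the bottom in all 3, at 0.725, 0.939 and 1.13 CPM. Ocln was at 43.1, 71.7 and 54.6 CPM, with an interval of -0.00 to 1.11 around a fitted log2 change of 0.55 (edgeR adjusted p = 0.117). Cgn was at 32.5, 25.2 and 20.5 CPM, with an interval of -1.01 to -0.01 around -0.51 (edgeR adjusted p = 0.112). Scaled by total counts alone, Cgn passed at -0.94 (adjusted p = 0.0348), while that scaling moved the median of all genes from -0.06 to -0.48 and the split of all calls from 1959 higher and 2298 lower to 1015 and 3484. DESeq2's Wald test gave 2339 higher and 1733 lower over all genes, and called 2 of the 9 genes higher and 2 lower, the same counts as in edgeR.

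Keratinocyte genes moved in the same libraries. Of 12 keratinocyte markers, 5 rose and 0 fell by edgeR (0 fell at an unadjusted p under 0.05, by DESeq2 and by limma-voom), and their summed level was 22705 CPM in skin against 84197 and 65746 CPM in the papillomas. None of the 12 was at 0 in any library. Summed hair gene levels were 25145 CPM in skin, against 121 CPM in papilloma 1 and 7102 CPM in papilloma 2, and of 8 sebaceous gland markers 5 fell and 0 rose by edgeR (1, Dgat2, at an unadjusted p under 0.05, 1 by DESeq2 and 1 by limma-voom). Of 8 skeletal muscle markers 7 fell and 0 rose (0 at an unadjusted p under 0.05, by DESeq2 and by limma-voom), with sums of 9181 CPM in skin and 1781 and 1073 CPM in the papillomas. The RNA integrity number was 7.5 in skin, the lowest of the libraries, and 8.4 and 8.2 in the papillomas. The part of these differences in the claudin values was not tested. Between the papillomas, the ratio of papilloma 2 to papilloma 1 was 3.64 for Cldn3, 1.52 for Cldn1 (1.47 to 1.57) and 1.01 for Cldn23 (0.752 to 1.36).

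**Figure D2:**
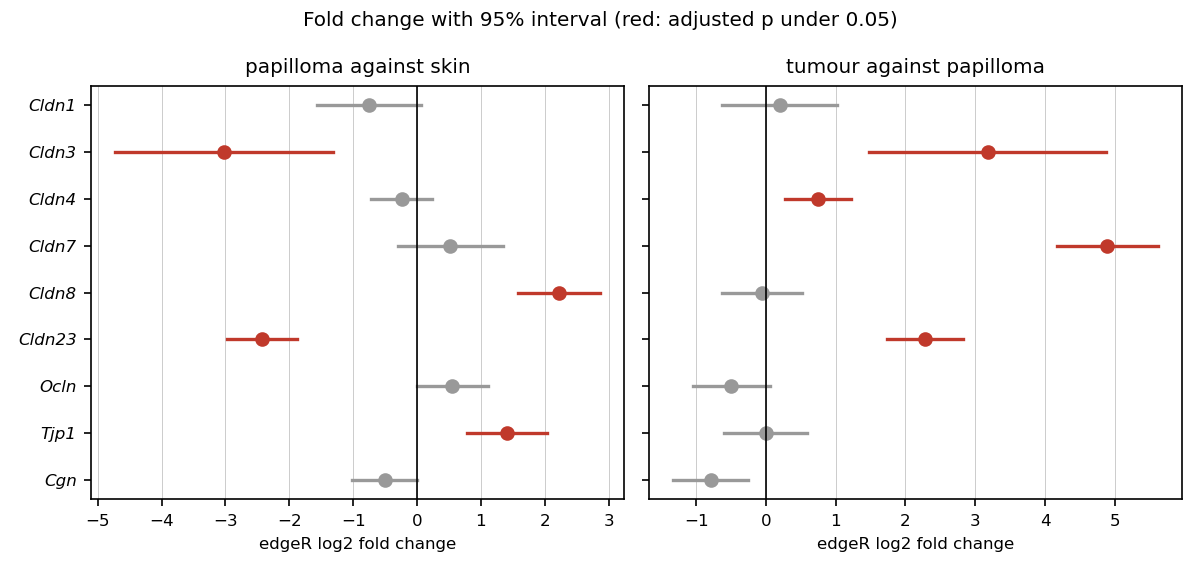
edgeR log2 fold changes of the 9 genes with 95% intervals, for papilloma against skin (left) and tumour against papilloma (right), red where the adjusted p was under 0.05. Cldn3 and Cldn23 lie left of 0 at -3.02 and -2.42 in the first and right of 0 at 3.18 and 2.28 in the second; both comparisons share the 2 papilloma libraries.

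The comparison of tumour with papilloma asks what differs between the malignant and the benign lesion. Cldn7, Cldn3, Cldn23 and Cldn4 were higher in the tumour by edgeR's test, against 11.9% of all genes tested called higher and 22.5% called in either direction. The other 5 genes did not pass. None was called lower by edgeR or DESeq2, while Cgn was lower at an unadjusted p under 0.05 and by limma-voom. The median log2 fold change was 0.20 over the 9 genes and -0.02 over all. The papilloma libraries also serve the comparison with skin, so a gene low in papilloma reads as a fall there and as a rise here.

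Cldn7, a claudin of glandular and simple epithelia, was at 31.0 CPM in the tumour against 0.939 and 1.13 CPM in the papillomas. The fitted log2 change was 4.89 ± 0.28 (edgeR adjusted p = 0.00227), and the tumour stood apart from all other biopsies. Cldn3 was at 12.1 CPM in the tumour against 0.563 and 2.05 CPM in the papillomas, a fitted log2 change of 3.18 ± 0.65 (edgeR adjusted p = 0.031). Cldn23 was at 19.0 CPM against 3.897 and 3.929 CPM, higher by 2.28 ± 0.21 (edgeR adjusted p = 0.00517). Cldn4 was at 231 CPM against 134 and 143 CPM, a smaller difference of 0.74 ± 0.18 (edgeR adjusted p = 0.0472). With DESeq2's size factors in the edgeR fit Cldn3 and Cldn4 missed the threshold (adjusted p = 0.0537 and 0.0602), and with total counts alone Cldn3 missed it (adjusted p = 0.0507). DESeq2's Wald test gave 0.000281 and 0.00608 for the same genes. The log2 ratio of CPM of Cldn3 was 2.81, or 2.31 with papilloma 1 left out and 3.57 with papilloma 2 left out. The tumour is a single library and was taken to vary as the papillomas do.

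Cldn1 was at 348 CPM in the tumour, between the papillomas, with a log2 fold change interval of -0.63 to 1.02. Cldn8, at 66.1 CPM, also lay between the papillomas (log2 fold change -0.06, interval -0.63 to 0.51). Tjp1, at 430 CPM, lay between them too (-0.01, interval -0.60 to 0.59). Ocln was at 44.8 CPM, under both papillomas (-0.49, interval -1.05 to 0.06). Cgn, at 13.1 CPM, was the lowest of the biopsies (-0.79, interval -1.33 to -0.26, edgeR adjusted p = 0.0532).

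Markers of simple and glandular epithelium rose along with Cldn7 from papilloma to tumour. All 8 of them rose in that comparison, and none was at 0 in a biopsy. Their summed level was 119 and 68.1 CPM in the papillomas and 3047 CPM in the tumour. Single genes made most of each sum, Aqp5 with 95.7 and 54.8 CPM in the papillomas and Ltf with 2018 CPM in the tumour. Of the other markers, Krt7 was at 2.96 and 1.98 CPM in the papillomas and 319 CPM in the tumour, and Krt19 at 2.07, 1.70 and 371 CPM. Of 12 keratinocyte markers 4 fell and 0 rose by edgeR (1, Dsg3, rose at an unadjusted p under 0.05, 2 by DESeq2 and 0 by limma-voom), and Krt5 was at 7958 and 6554.5 CPM in the papillomas and 12140 CPM in the tumour. Those that fell included Krt1, which was at 10284 and 9779 CPM in the papillomas and 96.6 CPM in the tumour, and Lor, a protein of the cornified layer, at 2810, 1991 and 76.5 CPM. The part of these marker changes in the rise of Cldn7 was not tested.

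Tumour and healthy skin have 1 library each, so their difference has no replicate check. By a rule of size, at least 4-fold on the log2 (CPM + 0.5) scale with at least 10 CPM in the higher library, Cldn7 and Cldn8 were higher in the tumour and none of the 9 genes was lower. Of the 11114 genes measured, 14.4% passed the rule, 5.21% higher and 9.14% lower. Cldn7 was 42.7-fold higher (95% counting interval 30.7 to 61.3) and Cldn8 4.46-fold (4.11 to 4.84). Scaled by total counts alone only Cldn7 passed, with Cldn8 at 1.84 on the log2 scale. Cldn3 and Cldn23 were near their skin level, with ratios of 1.11 (0.982 to 1.26) and 0.902 (0.822 to 0.990). Tjp1 was 2.64-fold higher and Cgn 2.48-fold lower, while Cldn1, Cldn4 and Ocln had ratios of 0.678, 1.41 and 1.04. Under total counts Cldn3 turned to -0.13 on the log2 scale. Intervals here cover counting error only.

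Summed claudin RNA was similar in 5 of the 6 libraries while its make-up differed, as the plot of claudins per kilobase shows. Over 25 claudin genes of the table, summed levels in CPM per kilobase of gene length were 321 in skin, 316 and 320 in the papillomas, 350 in the tumour and 294 in mSCC-20, but 18.9 in mSCC-38. Per length, Cldn1 made up 49.3% of claudin RNA in skin, 23.6% and 35.3% in the papillomas and 30.7% in the tumour. Cldn4 made up 28.2% in skin, 36.5% in the tumour and 75.4% in mSCC-20. Cldn8 made up 1.96% in skin, 10.6% and 7.82% in the papillomas and 8.01% in the tumour. The 6 claudins chosen by name held 85.8% of claudin RNA in skin, 58.6% and 69.2% in the papillomas, 87.0% in the tumour, 93.5% in mSCC-20 and 5.64% in mSCC-38. These shares come from single libraries and are given without a test.

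**Figure D3:**
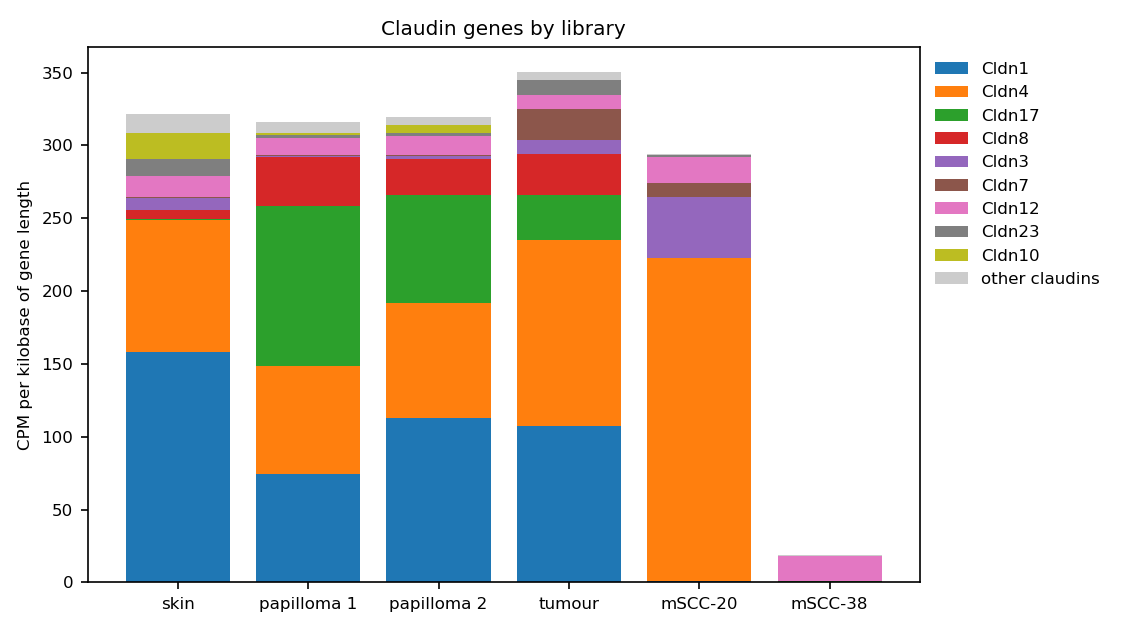
Stacked levels of claudin genes in CPM per kilobase of gene length, 1 bar per library. The bars of skin, papillomas, tumour and mSCC-20 reach 294 to 350, and that of mSCC-38 reaches 18.9, nearly all of it Cldn12.

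The largest new share in papilloma belonged to Cldn17, the neighbour of Cldn8 on chromosome 16. Cldn17 had 23 counts in skin, a level of 0.463 CPM, against 129 CPM in papilloma 1, 86.9 CPM in papilloma 2 and 35.8 CPM in the tumour. Its log2 level rose from skin to papilloma by 7.86 ± 0.42 (edgeR adjusted p = 0.00416) and fell from papilloma to tumour by 1.59 ± 0.29 (edgeR adjusted p = 0.0233). Per length it held 0.12% of claudin RNA in skin, and 34.9% and 23.2% in the papillomas. Its skin value was 0.359% of its highest library, above the background. It had 0 counts in mSCC-20 and 10 counts, 0.301 CPM, in mSCC-38, which is above the background. Cldn10 had 25.5 CPM in skin, against 2.35 and 7.33 CPM in the papillomas and 0.426 CPM in the tumour. It missed the threshold from skin to papilloma (log2 fold change -2.38, edgeR adjusted p = 0.0507) and was 59.8-fold lower in the tumour than in skin (37.7 to 101). From skin to papilloma edgeR called 12.0% of all genes tested higher and 14.1% lower. Among 11 other claudins tested, 1 rose and 1 fell in that comparison (Cldn17 and Cldn19, the latter at most 4.91 CPM in any library). The count that fell was 4 at an unadjusted p under 0.05, 4 by limma-voom and 2 by DESeq2. From papilloma to tumour 2 fell, Cldn17 and Cldn10, and 0 rose by edgeR and by DESeq2 (1 at an unadjusted p under 0.05 and 1 by limma-voom). Cldn5, the claudin of endothelium, was at 9.87 CPM in skin, 4.59 to 7.65 CPM in the lesions and 0 counts in both cultures.

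The comparison of mSCC-38 with mSCC-20 sets tumorigenic against non-tumorigenic cultured cells, with 1 library each and so no test. Cldn3, Cldn4, Cldn7 and Ocln were past 4-fold lower in mSCC-38, and none of the 9 genes was past 4-fold higher. Of the 9795 genes measured 10.1% passed the rule, 3.31% lower and 6.80% higher. Only 6 of the 9 reached 10 CPM in 1 of the cultures. The median log2 ratio of those 6 was -5.01, and -0.16 over all genes measured.

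Cldn4 had 12372 counts (402 CPM) in mSCC-20 and 19 counts (0.571 CPM) in mSCC-38, a 703-fold lower level (95% counting interval 450 to 1169). Cldn3 had 1623 and 2 counts, 877-fold lower (242 to 7245). Cldn7 had 436 and 0 counts, at least 157-fold lower against a floor of 3 counts. Ocln had 790 and 8 counts, 107-fold lower (53.9 to 248). The mSCC-38 levels of Cldn3 and Cldn4 were 0.114% and 0.142% of the mSCC-20 levels, which is background by the cut applied to all libraries. Both lay above the upper quartile of the hair genes in mSCC-38 itself, 0.0586% of their skin level. They rest on 2 and 19 counts, so these ratios are not exact and larger differences could read alike. The mSCC-38 level of Ocln was 0.335% of its highest library.

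The plaque genes differed less. Tjp1 was at 419 CPM in mSCC-20 and 261 CPM in mSCC-38, 1.61-fold lower (1.56 to 1.65). Cgn was at 21.3 and 4.96 CPM, 4.29-fold lower (3.62 to 5.13), and just missed the rule at -1.998 on the log2 (CPM + 0.5) scale, which it passed with 0.1 CPM added. Cldn12, a claudin outside the 9 that is singled out here after its values were seen, was at 74.0 and 68.2 CPM and made up 88.6% of the claudin RNA of mSCC-38 per length.

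Cldn1 and Cldn8 were already low in mSCC-20. Cldn1 was at 2.11 CPM in mSCC-20 and 0.993 CPM in mSCC-38 against 348 CPM in the tumour biopsy, 165-fold lower in mSCC-20 (129 to 213). Cldn8 had 2 counts in mSCC-20, at background, and 26 in mSCC-38, against 2790 in the tumour. Cldn23 was at 1.33 and 0.120 CPM in the cultures against 19.0 CPM in the tumour. Cldn3, at 52.7 CPM, was 4.34-fold higher in mSCC-20 than in the tumour (3.93 to 4.80), and Cldn4 1.74-fold higher. Past 4-fold, 3 of the 9 genes were lower and 1 higher in mSCC-20 than in the tumour (14.3% and 6.11% of all genes measured, 20.4% in both directions). In mSCC-38 7 were lower and 0 higher (10.4% and 2.84%, 13.3% in both directions). The comparison of cultures with the biopsy was added after the data were seen, and it sets cultured cells against tissue.

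**Figure D4:**
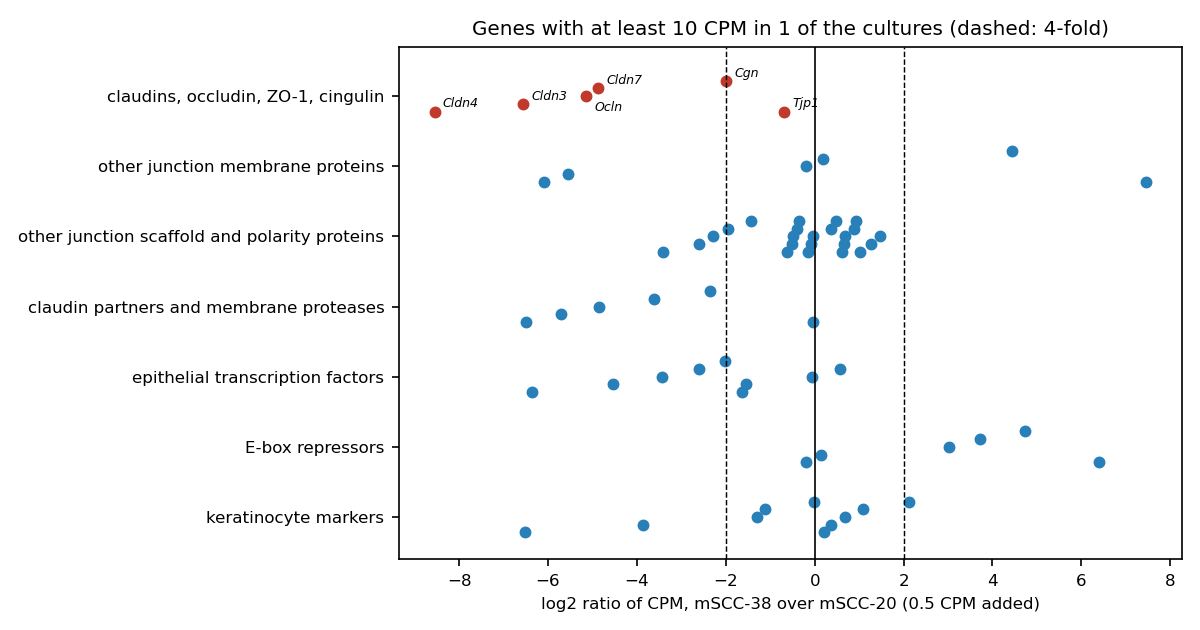
Log2 ratio of CPM, mSCC-38 over mSCC-20, for genes of 7 lists with at least 10 CPM in 1 of the cultures, 1 point per gene, dashed lines at 4-fold; Cldn1, Cldn8 and Cldn23 did not reach 10 CPM and are not drawn. Cldn4, Cldn3, Ocln and Cldn7 lie between -8.55 and -4.87 and Tjp1 at -0.68, while 4 E-box repressors lie above 3.

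Other membrane proteins of the junction went both ways between the cultures. Of 6 measured, 2 were past 4-fold lower in mSCC-38 and 2 higher, against 3.31% and 6.80% of all genes measured. Lsr and Marveld2, which encode the angulin and tricellulin of 3-cell contacts, were at 59.8 and 24.2 CPM in mSCC-20 and 0.391 and 0.030 CPM in mSCC-38. The adhesion molecule gene Jam2 was at 0.032 CPM (1 count) and 93.5 CPM, and Ildr2, of the angulin family, had 0 counts in mSCC-20 and 10.4 CPM in mSCC-38. F11r, encoding JAM-A, was at 134 and 116 CPM. Among the biopsies, 6 of these 10 genes fell and 1 rose (F11r) from skin to papilloma by edgeR. Ildr1 was at -2.18 and Ildr2 at -2.06 on the log2 scale. DESeq2 called 5 of the 10 lower and 1 higher, and limma-voom 7 and 1. Of all genes tested, edgeR called 14.1% lower and 12.0% higher. From papilloma to tumour 4 rose and 1 fell, with Ildr1 at 2.62 and Marveld3 at 2.57 (edgeR adjusted p = 0.0325 and 0.00606). DESeq2 called 3 higher and 1 lower there, and limma-voom 4 and 1. Of all genes tested, edgeR called 11.9% higher and 10.6% lower.

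Of 23 scaffold and polarity genes measured in the cultures, 3 were past 4-fold lower in mSCC-38 and 0 higher, against 3.31% and 6.80% of all genes measured. Those lower included Pard6b, of the apical polarity complex, at 75.7 and 6.71 CPM, and Inadl, the PATJ scaffold, at 64.2 and 10.2 CPM. Genes under 10 CPM in both cultures were not measured. Among those, Crb3 had 296 counts in mSCC-20 and 0 in mSCC-38, Tjp3 90 and 2, and Prkcz 113 and 3, while Pard6a had 252 and 295. In the biopsies, 4 of 27 rose and 5 fell from skin to papilloma, close to the shares of all genes tested (12.0% higher and 14.1% lower). Those that fell included Amot, an angiomotin, at -2.44 and Cgnl1, encoding paracingulin, at -1.65. From papilloma to tumour 7 of 27 rose and 0 fell by edgeR (4 fell at an unadjusted p under 0.05, 2 by DESeq2 and 2 by limma-voom). Of all genes tested there, edgeR called 11.9% higher and 10.6% lower. Cgnl1 led at 2.49 (edgeR adjusted p = 0.00227). Its relative Cgn had -0.79 in the same comparison, without a call.

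Genes of proteins known to bind claudins, and of membrane proteases and their inhibitors, were mostly lower in mSCC-38. Of 6 such genes, 5 were past 4-fold lower in mSCC-38 than in mSCC-20 and 0 higher, against 3.31% and 6.80% of all genes measured. Epcam, whose product binds claudin-7 and claudin-1, was at 196 CPM in mSCC-20 and 3.25 CPM in mSCC-38. The membrane proteases St14 and Prss8 were at 98.7 and 19.95 CPM in mSCC-20 and 0.602 and 0.211 CPM in mSCC-38. In the biopsies Epcam lay between 266 and 428 CPM. From skin to papilloma 1 of the 6, Prss8, rose, by 1.11 on the log2 scale, and 0 fell (0 at an unadjusted p under 0.05, by DESeq2 and by limma-voom). Of all genes tested, edgeR called 12.0% higher and 14.1% lower.

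A part of the transcription factors of epithelial differentiation and a part of the E-box repressors differed between the cultures in opposite directions. Of 9 measured epithelial factors, 5 were past 4-fold lower in mSCC-38 and 0 higher, against 3.31% and 6.80% of all genes measured. Klf5 (54.1 CPM in mSCC-20 and 51.9 CPM in mSCC-38) and Trp63 (245 and 363 CPM) were among those within 4-fold. Grhl2, a Grainyhead-like activator of claudin genes, was at 95.5 and 3.64 CPM, Elf3, an ETS factor, at 50.2 and 0.120 CPM, and Grhl1 at 30.7 and 2.41 CPM. Of 6 measured repressors 4 were past 4-fold higher and 0 lower. Zeb1 was at 1.98 and 65.5 CPM, Zeb2 at 0.357 and 72.0 CPM, Twist1 at 4.22 and 61.9 CPM, and Snai1 at 1.07 and 12.2 CPM. Snai2 was at 80.9 and 70.7 CPM, Twist2 at 22.4 and 24.9 CPM, and Snai3, under 10 CPM in both cultures, at 7.73 and 7.25 CPM. The part of these factors and repressors in the claudin levels of the cultures was not tested.

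Other junction and lineage genes gave the setting of these values. Cdh1, encoding E-cadherin of adherens junctions, was at 195 CPM in mSCC-20 and 1.62 CPM in mSCC-38. The desmosome genes Dsp, Jup, Pkp1 and Perp were at 989, 567, 400 and 500 CPM in mSCC-20 and at 1136, 736, 637 and 1060 CPM in mSCC-38. The desmosomal cadherin genes of the same list went both ways. Dsg3 was at 223 CPM in mSCC-20 and 14.8 CPM in mSCC-38, and Dsc3 at 56.5 and 246 CPM. All 8 measured fibroblast and mesenchymal markers were past 4-fold higher in mSCC-38, against 6.80% of all genes measured. The list summed to 6785 CPM in mSCC-38 against 174 CPM in mSCC-20. Vim was at 1.62 and 3977 CPM. None of the 12 was at 0 in either culture. The leukocyte markers summed to 6.86 and 15.8 CPM, and the endothelial markers to 8.29 and 46.8 CPM, of which Flt1 made 2.18 and 39.9 CPM. The part of other cells, or of the mesenchymal genes, in the lower claudin RNA of mSCC-38 was not tested.

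Among the biopsies the repressors and epithelial factors gave other counts. From skin to papilloma 2 of 7 repressors fell by edgeR, Zeb1 and Zeb2, by 0.78 and 0.99 on the log2 scale. By edgeR 0 rose (0 at an unadjusted p under 0.05, by DESeq2 and by limma-voom). DESeq2 called 1 lower and limma-voom 2. Of all genes tested, edgeR called 14.1% lower and 12.0% higher. From papilloma to tumour 3 of 7 rose by edgeR, Snai2 by 1.90, Twist1 by 1.11 and Zeb2 by 0.64. In that comparison 0 fell (0 at an unadjusted p under 0.05, by DESeq2 and by limma-voom). DESeq2 called 2 higher and limma-voom 3. Of all genes tested there, edgeR called 11.9% higher and 10.6% lower. Cldn7, Cldn3, Cldn23 and Cldn4 were higher in the same comparison. The part of the repressors in the claudin levels was not tested, and the biopsies are mixtures of cells. Elf3 had 3.06 CPM in skin, against 50.9 and 50.2 CPM in the papillomas and 309.5 CPM in the tumour, and rose in both comparisons, by 4.05 and 2.61. Grhl3 rose from skin to papilloma by 2.34, with 5 of 10 epithelial factors rising and 0 falling (0 at an unadjusted p under 0.05, by DESeq2 and by limma-voom). DESeq2 and limma-voom each called 6 higher. From papilloma to tumour Elf3 was the 1 that rose, and 2 fell, Ovol1 by 2.49 and Grhl1 by 1.25 (edgeR adjusted p = 0.0143 and 0.0283). DESeq2 called 4 of these factors lower and limma-voom 3, and each called 1 higher.

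The genes nearest to each of the 9 in profile were found among 11829 others with at least 10 CPM in 1 library, by the root mean square difference of log2 (CPM + 0.5) centred on each gene's mean over the 6 libraries. A small value means a like shape and a like range, because the profiles were centred but not scaled. Genes that vary little over the libraries, such as Tjp1, therefore reach small values more easily. The libraries share their differences in tissue, so nearness is a description. Tjp1 had the closest neighbours, Sec23b (0.13) and Brwd3 (0.14), followed by Cgn with Aktip (0.14) and Lhpp (0.17). Ocln was nearest to Grb7 (0.26) and to Crb3 (0.27), the apical polarity gene, which was at 9.62 CPM in mSCC-20 and 0 counts in mSCC-38. Cldn8 was nearest to Hsd17b2 (0.31) and Spns2 (0.45). Cldn1 was nearest to H2-Ab1 (0.34) and Fstl1 (0.37), which are known from immune and stromal cells and had at most 0.962 CPM in either culture. Cldn23 was nearest to Ildr1 (0.47) and Mfap5 (0.49), and Cldn7 to Cda (0.55) and 1600029D21Rik (0.90). Cldn4 was nearest to Epcam (0.87) and Pdpn (0.88), and Cldn3 to Myh10 (0.83). The levels of Cldn4 and Cldn3 ranged more widely over the libraries than those of Tjp1.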

How the data were processed

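The authors deposited 1 table with a raw count and an RPKM value per gene model and library, per the file headers. The build was mm9, per the submitters' processing notes. Which aligner and counter were used, and whether counting was stranded, is not given in the sources used here. SOLiD libraries came from a kit meant for small RNA, per the labels' protocols. The deposited RPKM values equal the count per kilobase and per 1e6 of 99.2% to 99.6% of each library's summed counts and served as a check. Listed starts count from 0 and were raised by 1.

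CPM used TMM factors over the 6 libraries. Papilloma against skin and tumour against papilloma were tested with edgeR 4.0.16 (quasi-likelihood, limma 3.58.1, R 4.3.3) on the counts of the 4 biopsies together, filtered by filterByExpr, with 1 residual degree of freedom and calls at an adjusted p under 0.05. The SE was worked back from the F statistic. Comparisons of single libraries used the rule of size (0.5 CPM added, 4-fold, 10 CPM) with exact Clopper-Pearson 95% intervals, which cover counting error only. Alternatives were RLE factors, total counts, DESeq2 1.42.0, limma-voom, no filter, all 6 libraries in the fit, other pseudocounts and folds. The edgeR step was tested on simulated data. The papilloma libraries differed by more than counting noise (chi-square 67.9 per degree of freedom, 14845 genes). The 9 genes and all gene lists were chosen with earlier results of these data known. All 9 genes are named. Of each other list, at most 6 called genes of at least 10 CPM with the largest change were candidates for naming. Further genes named as examples (Cldn5, Cldn12, Cldn19, F11r, Tjp3, Prkcz, Pard6a, Klf5, Trp63, Twist2, Snai3, Krt5 and the desmosome genes) were chosen after their values were seen. For each of the 9, up to 2 genes nearest in profile are named. Some genes that these rules pick are not reported here.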

Additional observations from a re-analysis of the deposited data

How the results depend on the processing

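Of 108 alternative tests of the 9 genes, 99 kept their direction and their side of the threshold. Papilloma against skin gave 3 to 5 called genes. Tumour against papilloma gave 4, and also 4 with all 6 libraries in the fit and by DESeq2. It gave 2 with DESeq2 size factors in the edgeR fit, where Cldn3 and Cldn4 were lost, 3 with total counts alone, and 5 without a filter and by limma-voom. With total counts alone, 2 uncalled genes of that comparison turned sign, Cldn8 to 0.0838 and Tjp1 to 0.13 on the log2 scale. Cgn was called lower there without a filter (-0.79, edgeR adjusted p = 0.0342) and by limma-voom (-0.77, adjusted p = 0.0466). Tumour against skin gave 2 genes past 4-fold, 1 with total counts alone and 4 past 2-fold. The cultures gave 4 or 5. Undivided by length, Cldn1 made up 61.6% of claudin counts in skin and 49.9% in papilloma 2, Cldn17 19.9% in papilloma 1, Cldn4 29.3% in the tumour and 73.4% in mSCC-20, and Cldn12 94.5% in mSCC-38. The causes were not tested, apart from the length itself in those shares.

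Leaving out 1 papilloma gave log2 ratios without a test, since no residual degree of freedom was left. From papilloma to tumour Cldn1 ranged from -0.07 to 0.53 and Cldn8 from -0.26 to 0.16. No paired analysis was possible because the labels do not say which libraries share a mouse or a tumour. Over all genes, total counts alone moved the split of tumour against papilloma from 1954 higher and 1733 lower to 1778 and 1171. Low counts limit Cldn3 in papilloma and the 6 claudins chosen by name in mSCC-38.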
